A study of Mus musculus with 9 samples.

Results

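The fatty acid oxidation and fasting genes examined here were Ppara, Ppargc1a, Cpt1a, Cpt2, Acadm, Ehhadh, Pdk4 and Angptl4. They were listed by name, by a rule that uses no measured value but was set with earlier results of these data known, and they are 8 of the 54532 genes in the count tables. All 8 were among the 16646 genes that passed the filter on low counts. PolyA-selected RNA was sequenced from the kidneys of C57BL/6J mice in 9 libraries, which the labels place in 3 groups of 3. The WT mice carried intact Trex1, and no treatment is given for them. The second group was Trex1-/- mice given PBS for 2 weeks, and the third was Trex1-/- mice given SN-011, an antagonist of the adaptor STING, for 2 weeks. Both Trex1-/- groups lack TREX1, an exonuclease that degrades cytosolic DNA. The study's methods state that Trex1-/- mice came from Trex1+/- intercrosses, were 1 month old, and received SN-011 at 10 mg/kg or a PBS-based vehicle by daily intraperitoneal injection. WT mice, 4 to 8 weeks old, were purchased, so genotype, source of the animals and injection cannot be told apart in a comparison with WT. Sex, feeding state and time of day at collection, to which genes of this kind respond, are not given in the sources used here.

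PPAR-alpha, encoded by Ppara, is a nuclear receptor that binds fatty acids, pairs with RXR and raises transcription of the enzymes that burn fat. During fasting it works with the coactivator PGC-1alpha, encoded by Ppargc1a. Fatty acids enter mitochondria as carnitine esters through CPT1 and CPT2 and are shortened there by beta-oxidation, while peroxisomes shorten very long chains. The proximal tubule of the kidney depends on this pathway for most of its energy.

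The libraries held 16118813 to 21928965 counted read pairs. Trex1 itself was listed at 0 counts in all 9 libraries, WT included, so it does not check the genotype labels. Transcripts of the Y chromosome (Ddx3y, Kdm5d, Eif2s3y and Uty together) were present at 153 to 188 CPM (counts per 1000000 of the raw library total) in 5 libraries, which were the 3 Trex1-/- PBS libraries, SN-011 replicate 2 and WT replicate 3. The other 4 libraries had at most 0.377 CPM of them and carried Xist at 434 to 503 CPM. Trex1-/- PBS therefore held libraries of 1 kind, and the other groups were mixed. Each comparison was made with group means alone, and again with a term for Y-linked reads added to the fit. SN-011 replicate 2 stood furthest from its own group, with a scaling factor (TMM) of 0.926 against 1.05 and 1.06. The summed level of 11 proximal tubule markers was 10077 to 12878 CPM in all libraries, while the skeletal muscle markers Ckm, Acta1 and Myh4 had at most 1 count in any library.

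In GENCODE vM21, the exons of the fatty acid oxidation and fasting genes share no base with those of another gene. In GRCm38, with gene positions from GENCODE vM21, Ppara lies on chromosome 15 at 85734983 to 85802819 on the plus strand, and Ppargc1a on chromosome 5 at 51454250 to 51567726 on the minus strand. Cpt1a spans 3322334 to 3385733 of chromosome 19 on the plus strand. Cpt2 is found on chromosome 4 at 107903981 to 107923610 on the minus strand. The beta-oxidation genes Acadm and Ehhadh lie on the minus strands of chromosome 3 at 153922357 to 153944632 and of chromosome 16 at 21761287 to 21787807. Pdk4 occupies 5483351 to 5496309 of chromosome 6 and Angptl4 33773750 to 33781830 of chromosome 17, both on the minus strand.

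PPAR-alpha and RXR bind pairs of the hexamer AGGTCA, arranged as direct repeats with 1 base between them. Promoter windows of 300 bases, from 250 bases before to 50 after the RefSeq transcription start (GRCm38.p6), were at hand for 7 of the 8 genes, all except Angptl4. On either strand, 2 of the 7 windows held AGGTCA, against 16.26% of 32851 windows in the table. In both, it stood on the opposite strand (as TGACCT), at position -94 in Cpt1a and -249 in Acadm relative to the start. The direct repeat was in none of the 7 windows and in 0.04% of all windows. A hexamer of the steroid receptor element, AGAACA, was in none of the 7 and in 18.97% of all windows. These matches are descriptions of letters in a short window and say nothing of binding. The Cpt1a and Acadm windows are shown for the hexamer, in capitals, and the Ehhadh window because Ehhadh is the gene that passed the test below once Y-linked reads were modelled. Their positions are chr19:3323051-3323350 (plus strand) for Cpt1a, chr3:153944594-153944893 (minus strand) for Acadm and chr16:21787785-21788084 (minus strand) for Ehhadh.
Cpt1a: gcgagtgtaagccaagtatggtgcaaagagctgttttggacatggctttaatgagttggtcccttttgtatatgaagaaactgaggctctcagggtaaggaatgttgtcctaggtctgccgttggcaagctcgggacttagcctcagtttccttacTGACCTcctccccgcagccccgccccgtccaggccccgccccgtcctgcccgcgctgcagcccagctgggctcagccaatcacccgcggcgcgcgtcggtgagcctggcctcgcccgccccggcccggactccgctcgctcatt
Acadm: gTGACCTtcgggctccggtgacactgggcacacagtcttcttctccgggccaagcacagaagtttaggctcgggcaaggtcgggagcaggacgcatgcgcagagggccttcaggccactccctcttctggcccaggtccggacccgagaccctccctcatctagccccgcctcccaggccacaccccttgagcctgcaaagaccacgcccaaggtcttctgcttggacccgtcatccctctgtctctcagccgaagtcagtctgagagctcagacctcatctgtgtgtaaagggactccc
Ehhadh: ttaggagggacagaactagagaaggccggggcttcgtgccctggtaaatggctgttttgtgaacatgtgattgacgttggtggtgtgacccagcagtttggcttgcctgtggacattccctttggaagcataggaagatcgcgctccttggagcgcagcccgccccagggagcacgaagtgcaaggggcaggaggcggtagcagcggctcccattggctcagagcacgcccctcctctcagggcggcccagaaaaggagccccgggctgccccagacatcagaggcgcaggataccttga

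Scaled by exon length, Acadm, Ehhadh, Cpt2 and Cpt1a had higher mean levels than the regulators Ppargc1a and Ppara. Over the 9 libraries, the mean level was 242 CPM per kb of exon for Acadm, 191 for Ehhadh, 77.4 for Cpt2, 46.2 for Cpt1a, 27.3 for Angptl4, 16.3 for Ppargc1a, 13.4 for Pdk4 and 7.32 for Ppara. Ehhadh was above Cpt2, Cpt2 above Cpt1a and Cpt1a above Angptl4 in 9 of 9 libraries. Acadm exceeded Ehhadh in 8 libraries and Pdk4 exceeded Ppara in 8. The order of Angptl4 and Ppargc1a held in 6 libraries and that of Ppargc1a and Pdk4 in 7, so these neighbours were not separated beyond their spread. The range over all libraries overlapped between each pair of neighbours in this order.

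**Figure D1:**
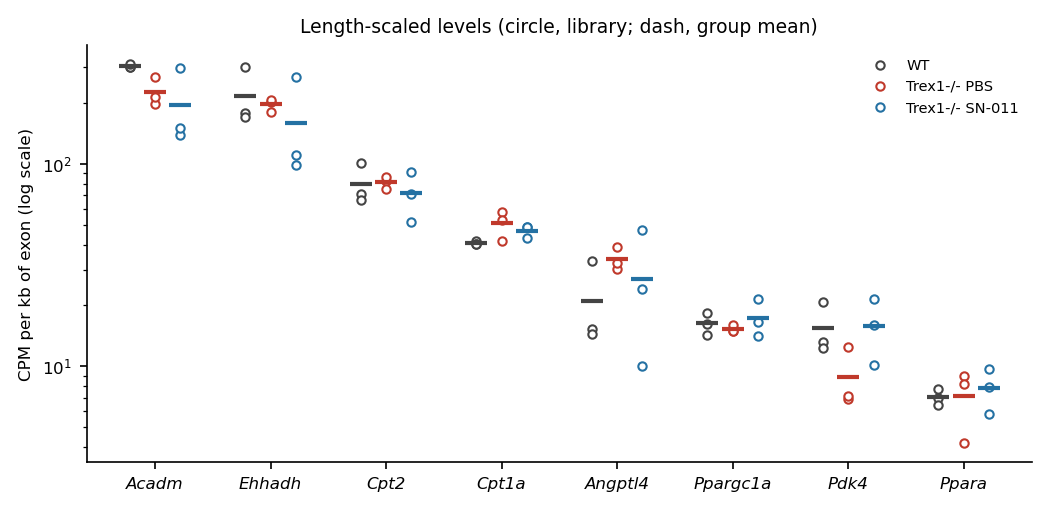
Length-scaled level of the 8 genes (CPM per kb of exon, logarithmic axis), with each library as a circle and each group mean as a dash, coloured by group. The mean over libraries runs from 242 CPM per kb for Acadm to 7.32 for Ppara.

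No member was called changed at an adjusted p under 0.05 in any of the 3 comparisons by group means (edgeR quasi-likelihood test, Benjamini-Hochberg over 16646 genes). In Trex1-/- PBS against WT, 0 of 8 were called, where 1.88% of all genes tested were, and 2 of 8, Cpt1a and Pdk4, had an unadjusted p under 0.05, as had 2532 of all genes (15.2%). In SN-011 against PBS, 0 of 8 were called and 1, Pdk4, had an unadjusted p under 0.05. In that comparison 0% of all genes were called by this test, 1905 genes (11.4%) had an unadjusted p under 0.05, and 183 genes were called by DESeq2 (Wald test), 127 by the exact test of edgeR and 0 by limma-voom. For SN-011 against WT, again 0 of 8 were called, with 1.28% of all genes called and 1 member, Acadm, at an unadjusted p under 0.05 beside 2998 of all genes (18%). DESeq2, the exact test and limma-voom also called 0 of 8 members in each comparison, where DESeq2 called 4.36% of all genes in PBS against WT, 1.1% in SN-011 against PBS and 4.9% in SN-011 against WT. All 3 comparisons share groups, so their values are given side by side and are not independent. In bulk tissue, fewer cells of a type and less RNA per cell cannot be told apart.

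**Figure D2:**
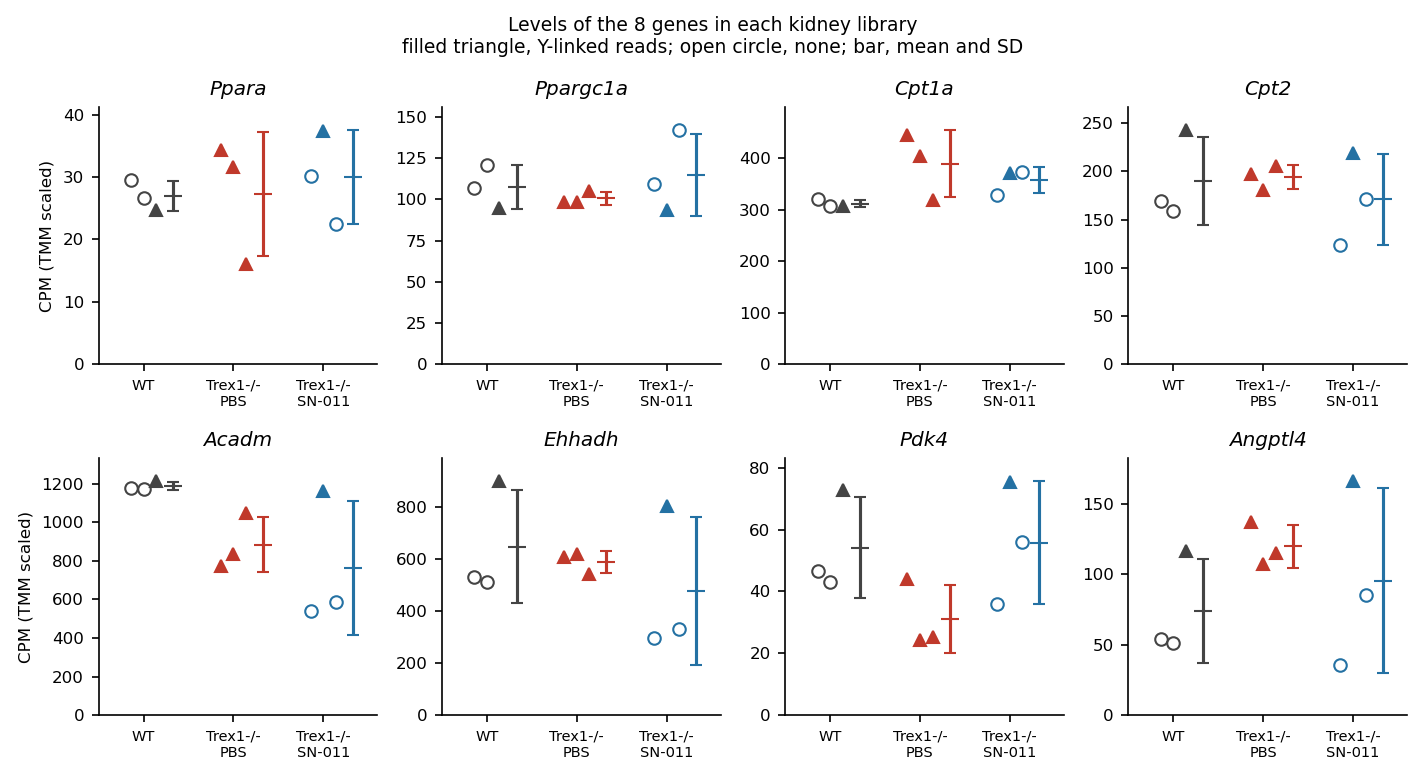
Level of each of the 8 genes (CPM, TMM scaled, linear axis from 0) in every library, by group. Filled triangles are libraries with Y-linked reads, open circles those without, and the bar at the right of each group is the mean with its SD (n = 3). WT replicate 3 and SN-011 replicate 2, the single triangles of their groups, are the highest of their group for Cpt2, Acadm, Ehhadh, Pdk4 and Angptl4.

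Among the regulators, Ppara and Ppargc1a differed little between groups. Ppara had 29.6, 26.6 and 24.7 CPM in the 3 WT libraries, 34.4, 31.5 and 15.97 in Trex1-/- PBS, and 30.2, 37.4 and 22.4 in SN-011. PBS replicate 3 was the lowest library of all and the 3 groups overlapped. The log2 fold change was 0.018 ± 0.26 (SE) in PBS against WT (edgeR, adjusted p = 0.982), 0.14 ± 0.26 in SN-011 against PBS (adjusted p = 0.878) and 0.15 ± 0.26 in SN-011 against WT (adjusted p = 0.802).

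Ppargc1a was at 107, 121 and 94.5 CPM in WT, 98.4, 98.6 and 105 in PBS, and 109, 93.3 and 142 in SN-011. SN-011 replicates 2 and 3 were the lowest and highest of all 9 libraries, and the groups overlapped. In PBS against WT its log2 fold change was -0.095 ± 0.15 (SE, edgeR, adjusted p = 0.804). The values were 0.19 ± 0.15 in SN-011 against PBS (adjusted p = 0.658) and 0.095 ± 0.15 in SN-011 against WT (adjusted p = 0.779).

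At the entry of fatty acids into mitochondria, Cpt1a, the outer-membrane carnitine palmitoyltransferase that limits the rate of oxidation, had higher mean levels in both Trex1-/- groups than in WT, and the difference did not pass the test. Its levels were 320, 307 and 308 CPM in WT, 445, 405 and 318 in PBS, and 329, 372 and 373 in SN-011. WT libraries lay close together (mean 312 ± 7.22 CPM, SD, n = 3), PBS replicate 3 fell inside the WT range, and all 3 SN-011 libraries were above all 3 WT libraries. The log2 fold change was 0.32 ± 0.12 (SE) in PBS against WT (edgeR, adjusted p = 0.258). It was -0.12 ± 0.12 in SN-011 against PBS (adjusted p = 0.748) and 0.20 ± 0.12 in SN-011 against WT (adjusted p = 0.443).

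Cpt2, the inner-membrane partner that releases the fatty acid for oxidation, had 169, 159 and 243 CPM in WT, 197, 180 and 205 in PBS, and 123, 219 and 171 in SN-011. Within WT and SN-011, the highest value was in the library with Y-linked reads. The log2 fold change was 0.030 ± 0.21 (SE) in PBS against WT (edgeR, adjusted p = 0.963), -0.18 ± 0.21 in SN-011 against PBS (adjusted p = 0.776) and -0.15 ± 0.21 in SN-011 against WT (adjusted p = 0.745).

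Acadm, the medium-chain acyl-CoA dehydrogenase of mitochondrial beta-oxidation, was lower in every PBS library and every SN-011 library than in any WT library. WT had 1178, 1174 and 1213.5 CPM, PBS had 773, 835 and 1047, and SN-011 had 542, 1162 and 586. The WT libraries lay within a narrow range, and SN-011 replicate 2 stood near them while replicates 1 and 3 were the lowest of all. The log2 fold change was -0.43 ± 0.25 (SE) in PBS against WT (edgeR, adjusted p = 0.465) and -0.64 ± 0.26 in SN-011 against WT (adjusted p = 0.227), neither past the threshold. For SN-011 against PBS it was -0.21 ± 0.25 (adjusted p = 0.787). Acadm was the 1 member of 8 whose groups did not overlap in PBS against WT, where 25.4% of all genes tested did not overlap. In SN-011 against WT, Acadm and Cpt1a, 2 of 8, did not overlap, with 21.7% of all genes. For SN-011 against PBS the count was 0 of 8, with 16.1% of all genes.

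With SN-011 replicate 2 left out, Acadm was called in SN-011 against PBS (log2 fold change -0.65, adjusted p = 0.0292) and in SN-011 against WT (-1.08, adjusted p = 0.00400), in which 3.05% and 2.21% of all genes were then called. The remaining SN-011 libraries both lack Y-linked reads and all 3 PBS libraries carry them, so treatment and Y-linked reads cannot be told apart in the first of these values. In the second, WT replicate 3 carries Y-linked reads and the remaining SN-011 libraries do not.

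Ehhadh, the bifunctional enzyme of peroxisomal beta-oxidation and a classical PPAR-alpha target, varied widely within WT and within SN-011. Its levels were 530, 510 and 897 CPM in WT, 606, 616 and 541 in PBS, and 294, 801 and 330 in SN-011. The 2 highest libraries were WT replicate 3 and SN-011 replicate 2, and the PBS libraries fell between them and the others. By group means, the log2 fold change was -0.14 ± 0.35 (SE) in PBS against WT (edgeR, adjusted p = 0.888), -0.31 ± 0.35 in SN-011 against PBS (adjusted p = 0.781) and -0.44 ± 0.35 in SN-011 against WT (adjusted p = 0.558). Without SN-011 replicate 2, the last became -1.05 and was called (adjusted p = 0.0389). Y-linked reads are unbalanced in that value, since WT replicate 3 carries them and the SN-011 libraries that remain do not.

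Of the fasting-induced genes, Pdk4, the kinase that shuts pyruvate dehydrogenase and so spares glucose, had the largest fold change of the 8 in both comparisons that involve Trex1-/- PBS, and neither passed the test. Pdk4 was at 46.4, 43.1 and 73.0 CPM in WT, 43.8, 24.3 and 25.2 in PBS, and 35.8, 75.5 and 56.0 in SN-011. PBS replicates 2 and 3 were the lowest 2 libraries, and PBS replicate 1 lay inside the range of the other groups. The log2 fold change was -0.80 ± 0.31 (SE) in PBS against WT (edgeR, adjusted p = 0.259) and 0.84 ± 0.31 in SN-011 against PBS (adjusted p = 0.354). It was 0.042 ± 0.31 in SN-011 against WT (adjusted p = 0.963). The 3 values share groups, and the PBS libraries enter the first 2 with opposite signs.

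Angptl4, a secreted inhibitor of lipoprotein lipase that PPARs and glucocorticoids induce, had the widest range of the 8, 4.69-fold from its lowest to its highest library. It was at 54.3, 51.2 and 117 CPM in WT, 137, 108 and 115 in PBS, and 35.4, 166 and 85.1 in SN-011. All 5 libraries with Y-linked reads, at 108 to 166 CPM, were above the 4 without, at 35.4 to 85.1 CPM. By group means the log2 fold change was 0.70 ± 0.47 (SE) in PBS against WT (edgeR, adjusted p = 0.521), -0.33 ± 0.47 in SN-011 against PBS (adjusted p = 0.827) and 0.37 ± 0.47 in SN-011 against WT (adjusted p = 0.733). Angptl4 and Fabp4 are also fat cell genes. The summed level of 7 adipocyte markers was 67.5 to 224 CPM in WT, 32.1 to 97.8 in PBS and 24.1 to 103 in SN-011, with none of the markers at 0 in any library. Within WT and within PBS the libraries had the same order by that sum as by Angptl4. In SN-011 the order ran the other way, with the sum lowest and Angptl4 highest in replicate 2. The part of fat cells in the Angptl4 values was not tested.

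**Figure D3:**
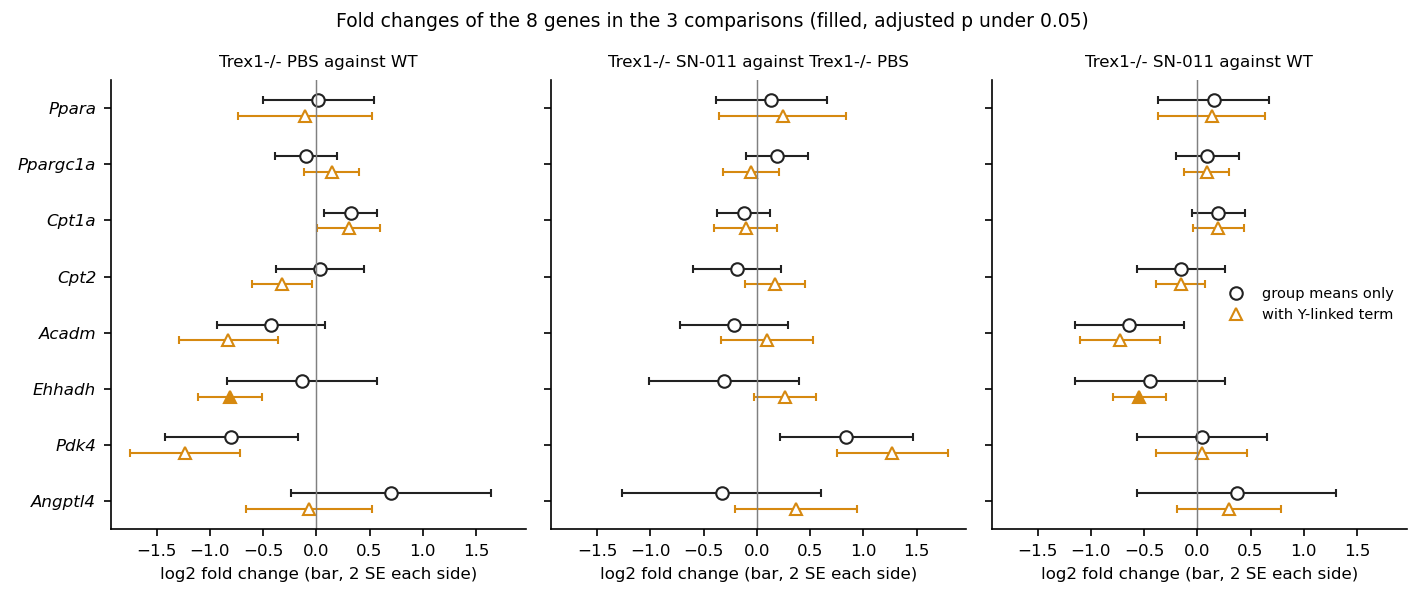
Log2 fold change of the 8 genes in the 3 comparisons, with bars of 2 SE on each side. Black circles are from group means alone and orange triangles from the fit with a term for Y-linked reads, and filled symbols have an adjusted p under 0.05. Ehhadh alone is filled, in the fit with the term, at -0.81 in Trex1-/- PBS against WT and -0.55 in SN-011 against WT.

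Because Trex1-/- PBS held libraries of 1 kind, the comparisons were repeated with the term for Y-linked reads. In this fit Ehhadh was lower in Trex1-/- PBS than in WT, with a log2 fold change of -0.81 ± 0.15 (SE, edgeR, adjusted p = 0.0266), and lower in SN-011 than in WT (-0.55 ± 0.12, adjusted p = 0.0381). It was the 1 of 8 members called in each, where 1.19% and 3.94% of all genes tested were called. Within the libraries with Y-linked reads alone, the 3 PBS libraries had 541 to 616 CPM of Ehhadh against 897 in the single WT library. The log2 fold change there was -0.61, a value that rests on that lone library. The single SN-011 library of this kind had 801 CPM, and SN-011 against WT was then -0.16, a difference between single libraries. The call in PBS against WT was lost when PBS replicate 1, 2 or 3 or WT replicate 1 or 2 was left out, with an adjusted p of up to 0.0864 and log2 fold changes that stayed between -1.19 and -0.61 across all libraries left out. The call in SN-011 against WT was lost without PBS replicate 1 or 2, SN-011 replicate 1 or 3, or WT replicate 1 or 2 (adjusted p of up to 0.136), with log2 fold changes of -0.74 to -0.44.

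The other members were not called with the term. Acadm had a log2 fold change of -0.83 ± 0.23 in PBS against WT (edgeR, adjusted p = 0.156) and -0.73 ± 0.19 in SN-011 against WT (adjusted p = 0.0568). For Pdk4 the values were -1.23 ± 0.26 in PBS against WT (adjusted p = 0.0526) and 1.27 ± 0.26 in SN-011 against PBS (adjusted p = 0.154). In SN-011 against PBS 0 of 8 members and 0% of all genes were called with the term, and 1 of 8 members and 1642 genes had an unadjusted p under 0.05. In PBS against WT, 4 of 8 members and 1820 genes had an unadjusted p under 0.05 with the term (edgeR). For SN-011 against WT these were 2 of 8 members and 3636 genes. A DESeq2 Wald test with the same term called Acadm, Ehhadh and Pdk4 in PBS against WT, Pdk4 in SN-011 against PBS, and Acadm and Ehhadh in SN-011 against WT. That test called 2.37%, 0.679% and 6.68% of all genes in the same order, more than edgeR did in each. Angptl4 went from 0.70 to -0.070 in PBS against WT (adjusted p = 0.957), and Cpt2 from 0.030 to -0.32 (adjusted p = 0.434).

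The contrast of libraries with and without Y-linked reads, taken within groups in the same fit, gave larger log2 values for Ehhadh, Angptl4 and Cpt2 than any of the study's comparisons did by group means. It rests on WT (1 library with, 2 without) and SN-011 (1 with, 2 without), since PBS held no library without. Of the 8 members, 3 were higher in the libraries with Y-linked reads, where 3.65% of all genes tested were called in either direction. An unadjusted p under 0.05 (edgeR) was reached by 6 of 8 members and by 2960 of all genes. The log2 difference was 1.08 ± 0.13 for Ehhadh (SE, edgeR, adjusted p = 9.96e-04), 1.31 ± 0.25 for Angptl4 (adjusted p = 0.0166) and 0.57 ± 0.12 for Cpt2 (adjusted p = 0.0276). Pdk4 (0.71, adjusted p = 0.116), Acadm (0.57, adjusted p = 0.147), Ppargc1a (-0.35, adjusted p = 0.127), Ppara (0.17, adjusted p = 0.785) and Cpt1a (0.028, adjusted p = 0.938) were not called. DESeq2 with the term called 5 of 8, adding Acadm and Pdk4, and 5.99% of all genes. In all 9 libraries, the levels of Ehhadh, Angptl4, Cpt2 and Ppargc1a, 4 of 8 members, did not overlap between the 5 libraries with and the 4 without, where 8.97% of all genes did not. Ppargc1a was the lower of these in the libraries with Y-linked reads, at 93.3 to 105 CPM against 107 to 142.

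Ehhadh kept its call in this contrast when any 1 of the 9 libraries was left out (0.78 to 1.37). Without SN-011 replicate 2, Angptl4 (1.14, adjusted p = 0.199) and Cpt2 (0.56, adjusted p = 0.195) lost theirs. Angptl4 also lost it without WT replicate 2 (1.32, adjusted p = 0.0502), and Cpt2 without WT replicate 1, 2 or 3 (adjusted p = 0.0593, 0.0874 and 0.0666). Of 11 proximal tubule markers, 2 were called in the same contrast, both higher, and 4 were below 0. Slc7a13, a transporter of the late proximal tubule, was higher by 5.42 on the log2 scale (adjusted p = 2.13e-04), and Slc22a6, an organic anion transporter, by 1.11 (adjusted p = 8.11e-04). Of 7 markers of the loop of Henle, distal tubule and collecting duct, 0 were called by edgeR, 1 had an unadjusted p under 0.05 and 6 were below 0. Leukocyte markers were above 0 in 7 of 7 (median 0.52, 2 at an unadjusted p under 0.05) and endothelial markers in 4 of 4 (median 0.20, 2 at an unadjusted p under 0.05), with none called. The part of these cell types in the members' values was not tested.

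**Figure D4:**
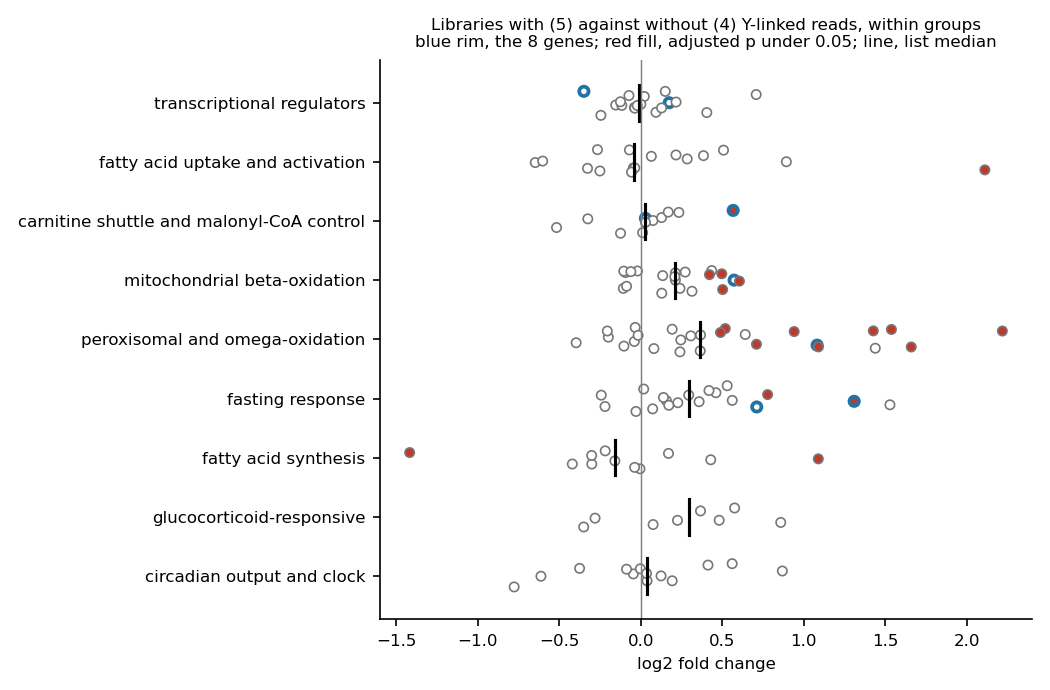
Log2 difference between libraries with and without Y-linked reads, within groups, for the tested genes of each pathway list. Red fill marks an adjusted p under 0.05, a blue rim the 8 members and the black line the list median, which is 0.37 for the peroxisomal list and 0.21 for the mitochondrial list.

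Other genes of the pathway were described from lists of related genes. In the contrast of libraries with and without Y-linked reads, 10 of 26 genes of peroxisomal and omega-oxidation were higher and none lower, with a list median of 0.37 against -0.014 over all genes. Besides Ehhadh they included Crot, which exports medium-chain products as carnitine esters (1.54, adjusted p = 9.37e-04), Amacr (1.66, adjusted p = 4.75e-04) and Pecr (1.43, adjusted p = 1.09e-03). Acox3, Ech1, Phyh, Cyp4a12a and Cyp4a31 were also among them, and near-identical Cyp4a copies make the last 2 uncertain. Of 20 genes of mitochondrial beta-oxidation, 4 were higher (Acadl, Acads, Decr1 and Etfdh, 0.42 to 0.61) and none lower. Cd36, the fatty acid translocase, was higher by 2.11 on the log2 scale (adjusted p = 6.74e-03). Of 11 genes of fatty acid synthesis, 1 was higher, Me1, the cytosolic malic enzyme (1.09, adjusted p = 1.68e-03), and 1 lower, the elongase Elovl6 (-1.42, adjusted p = 8.11e-04).

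Mitochondrial beta-oxidation genes mostly had slightly lower values in Trex1-/- PBS than in WT, and none passed the test by group means. In that fit 18 of 20 were below 0, with a list median of -0.16 against 0.0028 over all genes, and 5 of 20 had an unadjusted p under 0.05. The largest changes were in Acaa2 (-0.49 ± 0.16 SE, edgeR, adjusted p = 0.187), Acadm and Hadhb (-0.32 ± 0.10, adjusted p = 0.165), of which Acadm opens a round of the cycle and the thiolases Acaa2 and Hadhb close it. The median was -0.079 in SN-011 against PBS and -0.23 in SN-011 against WT, where 19 of 20 were below 0. With the term for Y-linked reads the median in SN-011 against PBS turned to 0.073, with 14 of 20 above 0 where 5 of 20 were by group means, and it was -0.24 in SN-011 against WT. For SN-011 against PBS, Acad9 (-0.34, adjusted p = 0.352), Acadm and Etfdh (-0.17, adjusted p = 0.717) had the largest changes. The same term gave 20 of 20 below 0 in PBS against WT (median -0.27), and Decr1, the dienoyl-CoA reductase, was called (-0.57, adjusted p = 0.0279).

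In peroxisomal and omega-oxidation, 1 of 26 genes was called by group means in PBS against WT, and none in the other comparisons, where 1 and 4 had an unadjusted p under 0.05 in SN-011 against PBS and SN-011 against WT. Acaa1b, a peroxisomal thiolase, was lower in Trex1-/- PBS than in WT, with a log2 fold change of -0.74 ± 0.12 (SE, edgeR, adjusted p = 0.0113). It had 495, 481 and 627 CPM in WT against 320, 308 and 330 in PBS and 383, 323 and 372 in SN-011, so no library of either Trex1-/- group reached WT. Reads shared with its near-identical copy Acaa1a were left out by the authors' unique mapping, so its level is uncertain. With the term for Y-linked reads, 3 of 26 were called lower in PBS against WT, namely Ehhadh, Acaa1b (-0.79, adjusted p = 0.0176) and Cyp4a31 (-0.83, adjusted p = 0.0201), and the same 3 genes were called lower in SN-011 against WT. By group means the call of Acaa1b was lost without PBS replicate 1 (-0.75, adjusted p = 0.0594) or PBS replicate 2 (-0.72, adjusted p = 0.0693). Cyp4a14 (-1.37, adjusted p = 0.168) and Cyp4a10 (-0.82, adjusted p = 0.177), omega-hydroxylases that PPAR-alpha induces, had lower values and Crot a higher one (0.99, adjusted p = 0.381). Cyp4a12a (0.93, adjusted p = 0.713), Crot (-0.65, adjusted p = 0.657) and Cyp4a14 (0.61, adjusted p = 0.621) had the largest changes of this list in SN-011 against PBS.

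**Figure D5:**
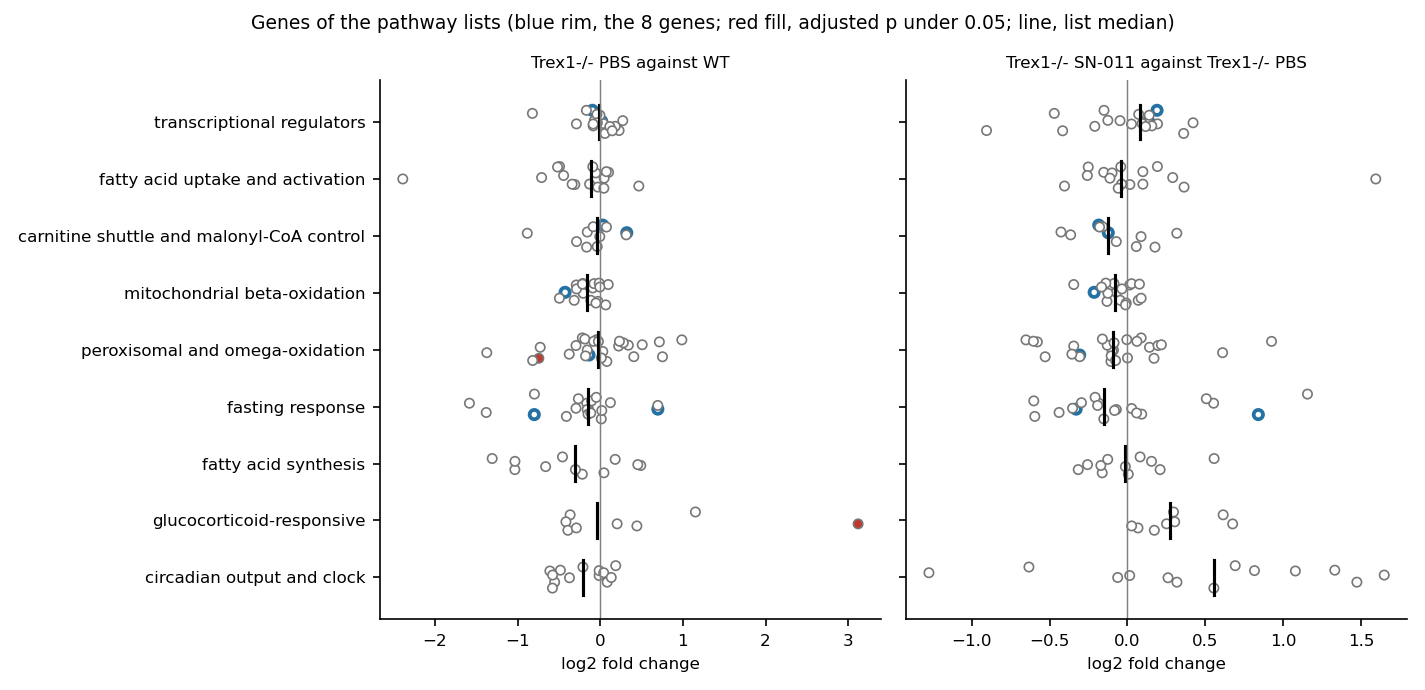
Log2 fold change by group means of the tested genes of 9 pathway lists in Trex1-/- PBS against WT (left) and in SN-011 against PBS (right). Blue rims mark the 8 members, red fill an adjusted p under 0.05 and black lines list medians. Acaa1b and Zbtb16 are the filled points at the left and there are none at the right.

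Among 19 tested fasting-response genes, 0 were called in PBS against WT or in SN-011 against PBS, with 4 and 3 at an unadjusted p under 0.05, and 1 was called in SN-011 against WT. That gene, Bdh1, the ketone body dehydrogenase, was lower in SN-011 than in WT (-1.004 ± 0.20 SE, edgeR, adjusted p = 0.0417), at 117, 177 and 118 CPM against 287, 325 and 215. The call was lost with any PBS library, SN-011 replicate 1 or 3, or WT replicate 1 or 2 left out (adjusted p of up to 0.145). Igfbp1, an insulin-responsive binding protein that rises in fasting, had 25.3, 34.2 and 39.7 CPM in WT, 24.9, 15.9 and 16.2 in PBS, and 30.9, 55.7 and 40.5 in SN-011. Like Pdk4, it had a negative value in PBS against WT (-0.80, adjusted p = 0.161) and a positive one in SN-011 against PBS (1.16, adjusted p = 0.210). Plin5, a lipid droplet protein, was at -0.60 in SN-011 against PBS (adjusted p = 0.498).

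Upstream of the 8 genes, 0 of 18 tested transcriptional regulators were called in any comparison by group means, with 0, 3 and 3 at an unadjusted p under 0.05 in PBS against WT, SN-011 against PBS and SN-011 against WT. In PBS against WT the largest changes among those with at least 1 CPM were in Ppargc1b (-0.29, adjusted p = 0.570), Ncor1 (0.27, adjusted p = 0.461) and Ppard (0.23, adjusted p = 0.760). In SN-011 against PBS they were in Ppard, the PPAR of broad expression (-0.90, adjusted p = 0.301), Sirt1, a deacetylase of PGC-1alpha (0.42, adjusted p = 0.210), and Lpin1 (-0.42, adjusted p = 0.510).

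Uptake and activation of fatty acids (16 tested) and the carnitine shuttle (11 tested) had no gene called by group means in any comparison, with 4 and 2 at an unadjusted p under 0.05 in PBS against WT, 1 and 0 in SN-011 against PBS, and 3 and 2 in SN-011 against WT. In PBS against WT the largest changes were in the binding protein Fabp1 (-2.39, adjusted p = 0.135), the acyl-CoA synthetase Acsl1 (-0.71, adjusted p = 0.165) and Fabp4 (-0.52, adjusted p = 0.381), with Fabp1 at a mean of 2.56 CPM in WT. SN-011 against PBS gave 1.59 for Fabp1 (adjusted p = 0.439), -0.40 for Cd36 (adjusted p = 0.863) and 0.36 for Acsl4 (adjusted p = 0.305). For the shuttle, PBS against WT gave -0.88 for Acaca (adjusted p = 0.212), which makes the malonyl-CoA that inhibits CPT1, and 0.31 for Slc22a21 (adjusted p = 0.539) beside Cpt1a. SN-011 against PBS gave -0.43 for Cpt1c (adjusted p = 0.477), -0.36 for Slc22a21 (adjusted p = 0.563) and 0.32 for Acaca (adjusted p = 0.740).

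The opposing pathway, fatty acid synthesis, had no gene of 11 called by group means, with 4, 0 and 2 at an unadjusted p under 0.05 in the 3 comparisons in the same order. Its list median was -0.30 in PBS against WT. Elovl6 (-1.31, adjusted p = 0.171), Fasn, the fatty acid synthase (-1.03, adjusted p = 0.191), and Thrsp (-1.03, adjusted p = 0.332) had the largest changes. With the term for Y-linked reads Elovl6 was -0.24 (adjusted p = 0.672) in that comparison. Values in SN-011 against PBS were 0.56 for Elovl6 (adjusted p = 0.652), -0.32 for Scd1 (adjusted p = 0.747) and -0.26 for Me1 (adjusted p = 0.823).

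Genes that respond to glucocorticoids or to the clock were examined because Pdk4, Angptl4 and Ppargc1a respond to both. Zbtb16, a glucocorticoid-induced transcription factor, was higher in Trex1-/- PBS than in WT (3.12 ± 0.40 SE, edgeR, adjusted p = 0.00237) and in SN-011 than in WT (3.80 ± 0.40, adjusted p = 0.00343). It was at 6.51, 3.30 and 2.603 CPM in WT, 42.3, 42.7 and 23.8 in PBS, and 60.3, 78.6 and 35.0 in SN-011. It was the 1 of 8 genes called in that list in each of these comparisons, and 0 of 8 were called in SN-011 against PBS, with 1 at an unadjusted p under 0.05. Fkbp5 (1.15, adjusted p = 0.156) and Cdkn1a (0.44, adjusted p = 0.673) had the next largest values in PBS against WT, where 4 of 8 were below 0 (list median -0.042), and 6 of 8 with the term for Y-linked reads (median -0.18). In SN-011 against PBS 8 of 8 were above 0 (median 0.27), and Zbtb16 (0.68, adjusted p = 0.498), Tsc22d3 (0.61, adjusted p = 0.416) and Per1 (0.30, adjusted p = 0.502) had the largest values. None of 13 clock genes was called by group means, with 0 at an unadjusted p under 0.05 in PBS against WT (list median -0.21), 6 in SN-011 against PBS (0.55) and 6 in SN-011 against WT (0.40). In the second of these, Ciart was at 1.65 (adjusted p = 0.241), Dbp at 1.47 (adjusted p = 0.466) and Per2 at 1.331 (adjusted p = 0.241). In PBS against WT Per3 (-0.61, adjusted p = 0.377), Cry1 (-0.58, adjusted p = 0.568) and Ciart (-0.58, adjusted p = 0.565) had the largest changes.

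Other tests and library sets called more genes of these lists. DESeq2 called 726 of all genes in PBS against WT, 183 in SN-011 against PBS and 816 in SN-011 against WT. In PBS against WT, DESeq2 called 3 of 26 peroxisomal genes, 3 of 16 uptake genes, 1 of 20 mitochondrial genes and 1 of 19 fasting-response genes, among them Cyp4a10, Fabp1, Acsl1, Hadhb and Igfbp1. The exact test called Fabp1 and Fkbp5 there, and the 6 libraries of the comparison alone gave calls for Fabp1, Acaca, Acaa2, Cyp4a14, Elovl6 and Fkbp5. In SN-011 against PBS, DESeq2 called 4 of 13 clock genes, with Ciart and Per2 among them, as well as Igfbp1 and Sirt1. The exact test called Ciart, Per2 and Igfbp1. In SN-011 against WT, DESeq2 called 3 peroxisomal genes, 2 clock genes, 2 glucocorticoid-responsive genes, 1 uptake gene and 1 transcriptional regulator. Without SN-011 replicate 2, 5 clock genes, 4 uptake genes, 3 peroxisomal genes, 2 mitochondrial genes, 2 regulators, 1 fasting-response gene and 1 glucocorticoid-responsive gene were called in SN-011 against PBS, with 519 of all genes, and Ppard, Fabp1, Cd36, Acad9, Crot, Ciart and Per2 were among those of the lists. The SN-011 libraries that remain there both lack Y-linked reads, which all PBS libraries carry.

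Levels of markers of other cell types were also compared between groups. The summed level of 8 leukocyte markers was 48.2 to 69.7 CPM in WT, 95.1 to 117 in PBS and 46.7 to 94.1 in SN-011, with a median log2 fold change of 0.91 in PBS against WT, with all 7 tested above 0, 7 at an unadjusted p under 0.05 and none called. The 7 markers of the loop of Henle, distal tubule and collecting duct summed to 10003 to 10767 CPM in PBS and 11201 to 12863 in WT, without overlap, with 6 of 7 below 0 (median -0.19) and none called. In SN-011 they summed to 10378 to 11470 CPM. With the term for Y-linked reads, the 7 tested leukocyte markers stayed above 0 in PBS against WT, with a median of 0.63. Of them, 2 had an unadjusted p under 0.05 (edgeR) and none was called. The markers of the loop of Henle, distal tubule and collecting duct then had a median of -0.11. None of these was called and 0 had an unadjusted p under 0.05. Of 11 proximal tubule markers, 4 were above 0 in PBS against WT and 1 was called, Slc5a2, a glucose transporter of the early tubule (-0.71, edgeR, adjusted p = 0.0163). With the term for Y-linked reads Slc5a2 was at -0.58 (adjusted p = 0.0701), and 0 of 11 were called, with 3 at an unadjusted p under 0.05. The part of these differences in the values of Acadm, Acaa1b and the other genes above was not tested.

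Over the 9 libraries the 8 genes did not vary as a single block. Cpt2 followed Angptl4 (Pearson r of log2 CPM = 0.88) and Ehhadh (r = 0.87), and Ehhadh followed Acadm (r = 0.79) and Angptl4 (r = 0.72). Ppargc1a ran against Ehhadh (r = -0.76), and the highest r of Ppara with another member was 0.50, with Cpt1a. The libraries share groups and the split by Y-linked reads, so these values are descriptions. Among 11589 genes with a mean of at least 5 CPM, those most like Cpt2 were Eci2 (r = 0.989), Castor1 (r = 0.960) and Gramd3 (r = 0.954), of which Eci2 is itself an enzyme of fatty acid oxidation. Acadm was most like Immt (r = 0.972), Slc22a19 (r = 0.967) and the ketone body gene Oxct1 (r = 0.967). Ehhadh was most like Plcl2 (r = 0.971), Zdhhc9 (r = 0.969) and Fbxo36 (r = 0.968), and Angptl4 like E2f3 (r = 0.968), Gna14 (r = 0.967) and Cmas (r = 0.960). For Cpt1a the genes were Jkamp (r = 0.966), Srsf4 (r = 0.966) and Man2a1 (r = 0.923), and for Ppara Zzef1 (r = 0.963), Cdc42bpa (r = 0.963) and Ankhd1 (r = 0.950). Ppargc1a was nearest to Bhlhb9 (r = 0.947), Bfar (r = 0.937) and Tes (r = 0.933), and Pdk4 to Kdm3a (r = 0.935), Galnt15 (r = 0.927) and AI597479 (r = 0.926).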

How the data were processed

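PolyA-selected RNA of 9 mouse kidneys was prepared as strand-specific libraries and sequenced as 150-base read pairs. The authors trimmed reads with Trimmomatic, aligned them with HISAT2 to mm10 (build and tools per the submitters' processing notes and the study's methods) and counted uniquely mapped pairs per Ensembl gene with featureCounts. The deposited values are raw counts of read pairs per gene, not scaled, 1 file per library. Versions, annotation and strand setting are not given in the sources used here. Of 54532 gene identifiers, 54409 matched GENCODE vM21 (GRCm38, the same assembly as mm10).

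Counts were fitted in R 4.3.3 with edgeR 4.0.16, using filterByExpr (count 10, total 15), TMM scaling and 1 quasi-likelihood fit of all 9 libraries with a mean per group. A gene was called at a Benjamini-Hochberg adjusted p under 0.05 over 16646 genes. SE was derived from the F statistic. CPM values are counts per 1000000 of TMM-scaled library size, and CPM per kb divides by the union of annotated exons. The fit was tested on simulated data. Alternatives used DESeq2 1.42.0, limma 3.58.1, edgeR's exact test, other scaling and filters, a term for Y-linked reads (a library carries them above 5 CPM), and each library left out. The fits that leave out a library with the term, and DESeq2 with the term, were added after the data were seen. A library's replicate number does not pair it with others: same-number deviations correlated at -0.294 to 0.242 over 9 pairs. No pair of replicates was a duplicate.

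The members and the gene lists were chosen with earlier results of these data known. From each pathway list, genes named are those called in any comparison and the 3 with the largest change, at a mean of at least 1 CPM, in PBS against WT and in SN-011 against PBS, apart from items not reported here. The genes most like each member are the 3 with the highest Pearson r of log2 CPM (prior count 2). Genes named from the contrast of Y-linked reads, and the markers Slc7a13, Slc22a6 and Slc5a2, were chosen after their values were seen. The labels do not say that libraries came from separate animals, so p-values measure the spread between these libraries. Motifs were searched on both strands.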

Additional observations from a re-analysis of the deposited data

How the results depend on the processing

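Without the term for Y-linked reads, 24 log2 fold changes of the 8 genes were recomputed under 480 alternatives, of which 435 kept their direction and side of the threshold, 6 passed it and 39 changed sign without passing it. Cpt1a kept its sign in all 3 comparisons under all alternatives, as did Acadm in both comparisons with WT, and Pdk4 in PBS against WT (-1.23 to -0.53) and in SN-011 against PBS (0.55 to 1.28). No member was called by another scaling, filter or test. With the Y-linked term 1 member was called in PBS against WT and 1 in SN-011 against WT. Within libraries with Y-linked reads, WT and SN-011 hold 1 library each, so calls from that fit are not listed. Leaving out 1 library gave 0 to 1 members called in SN-011 against PBS and 0 to 2 in SN-011 against WT, the higher ones without SN-011 replicate 2. With the term, leaving out 1 library gave 0 to 2 members in each of PBS against WT and SN-011 against WT. It gave 1 to 4 in the contrast of Y-linked reads. The share of all genes called in those fits is not at hand, so these counts are not a result about the members. In the same order DESeq2 with the term called 3, 2 and 5, and 1 in SN-011 against PBS, with 395, 1112, 997 and 113 of all genes.

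The replicate block called 0 members in all 3 comparisons and 312, 0 and 231 of all genes against 313, 0 and 213 without it. The number of genes called in PBS against WT (313) became 707 with no filter beyond 1 read, 726 by DESeq2, 683 by the exact test, 751 with the 6 libraries alone, 198 with the Y-linked term, and 153 to 774 with 1 library left out. For SN-011 against PBS (0) the counts were 127, 183 and 127 with no filter, by DESeq2 and by the exact test. They were 0 to 519 with 1 library left out, 519 being without SN-011 replicate 2. For SN-011 against WT (213) the counts in the same order were 607, 816 and 601. They were 43 with the 6 libraries alone, 656 with the term, and 38 to 376 with 1 library left out. The comparison within libraries with Y-linked reads holds 1 SN-011 and 1 WT library, so its counts are not given.

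Signs that changed were these, none of them called. In PBS against WT, Ppara went to -0.0092 with upper-quartile factors, -0.054 by limma-voom, -0.044 with the replicate block and -0.11 with the Y-linked term. In that comparison the term gave 0.14 for Ppargc1a, -0.32 for Cpt2, -0.070 for Angptl4, -0.22 for Cdkn1a and 0.0092 for Cry1. Within libraries with Y-linked reads it was 0.091 for Ppargc1a, -0.32 for Cpt2 and 0.22 for Cry1. In SN-011 against PBS the term gave -0.056 for Ppargc1a, 0.17 for Cpt2, 0.097 for Acadm, 0.27 for Ehhadh, 0.37 for Angptl4, 0.34 for Cd36, 0.099 for Etfdh, 0.066 for Crot, -0.54 for Elovl6 and 0.33 for Me1. Within libraries with Y-linked reads that comparison gave -0.11 for Ppargc1a, 0.17 for Cpt2, 0.39 for Acadm, 0.45 for Ehhadh, 0.47 for Angptl4, 0.097 for Lpin1, -1.44 for Fabp1, 0.86 for Cd36, -0.049 for Acaca, 0.11 for Etfdh, 0.34 for Crot, -0.71 for Cyp4a14, -0.62 for Elovl6, 0.49 for Me1 and -0.70 for Dbp, and SN-011 against WT gave -0.019 for Ppargc1a. The cause was not tested.

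With 1 library left out, PBS against WT ranged from -0.19 to 0.28 for Ppara, -0.085 to 0.24 for Cpt2, -0.28 to 0.17 for Ehhadh and -0.00072 to 0.50 for Ppard. SN-011 against PBS ranged from -0.13 to 0.34 for Ppara, -0.40 to 0.0030 for Cpt2, -1.0002 to 0.065 for Angptl4, -2.15 to 0.040 for Cd36, -0.18 to 0.56 for Acaca and -0.074 to 1.44 for Cyp4a12a, the lowest for Cpt2, Angptl4, Cd36 and Cyp4a12a being without SN-011 replicate 2. Cd36 was called there without that library. SN-011 against WT ranged from -0.041 to 0.32 for Ppara, -0.085 to 0.22 for Ppargc1a, -0.38 to 0.053 for Cpt2, -0.24 to 0.31 for Pdk4 and -0.30 to 0.85 for Angptl4. The members had 257 to 26000 counts per library.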
